A study of Homo sapiens with 6 samples.

Results

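NCEH1 and 7 further genes of cholesterol ester and neutral lipid turnover (AADAC, SOAT1, SOAT2, LIPA, LIPE, PNPLA2 and MGLL) were followed among the 56638 gene symbols counted in each library. NCEH1 was chosen by its counts in these 6 libraries, as among the deepest falls between the groups, so its values in that contrast are given as a description without a test, whereas the other 7 were listed for what their enzymes do. RNA sequencing covered 6 libraries of colorectal cancer cells from a human line, with control siRNA (a nonspecific siRNA) in the labels of 3 and lncRNA-AF339830 siRNA in those of the other 3, the earlier name of the long non-coding RNA GLCC1. No other allele or agent is named for either group, both were grown in RPMI-1640 with fetal bovine serum, and the cell line is SW480 in the labels but DLD-1 in the methods of the paper, which was not settled here. The names of the sequenced libraries give each group the other siRNA, and the titles, source names and genotypes were followed. The genotype entries read siRNA1 to siRNA3 within each group, controls included, so the sources do not say which GLCC1 siRNA a library received.

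Cells store cholesterol as cholesterol ester in lipid droplets. SOAT1 and SOAT2, enzymes of the endoplasmic reticulum, join cholesterol to a fatty acid, and ester is split again at neutral pH by NCEH1 and by hormone-sensitive lipase, the product of LIPE, or in lysosomes by LIPA, the acid lipase whose loss causes Wolman disease. AADAC is a close relative of NCEH1 best known in liver and intestine, PNPLA2 takes the first fatty acid from stored triacylglycerol, and MGLL frees the last one from monoacylglycerol. NCEH1 has also been described as the hydrolase of 2-acetyl monoalkylglycerol ether, an intermediate of ether lipids, in aggressive cancer cells.

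The counts on genes came to between 11948790 and 19042516 read pairs per library. GLCC1 has no entry of its own in the count files, so the knockdown could not be read directly. FARP1, the annotated gene that spans the locus, fell from 111 ± 2.13 to 64.8 ± 1.32 CPM (SD, n = 3 each), where CPM are counts scaled to library size after TMM correction for composition, with an adjusted p = 9.2e-06 from edgeR's quasi-likelihood test. By that test 28.7% of genes averaging 5 CPM or more were lower at an adjusted p under 0.05. FARP1 was not taken as a measure of the knockdown. Replicate 2 of the GLCC1 siRNA group, the smallest library, stood apart from its own group, with a chi-square per degree of freedom of 16.3 and 17.1 against the other two, which differed from each other by 3.07. Of 10 markers of colon epithelium, 9 averaged at least 1 CPM, and their summed level was 5683 to 6203 CPM in control libraries but 2416 to 2793 CPM in GLCC1 siRNA libraries. Most of that difference lay in keratins, since KRT8 fell from 3584 to 1177 CPM whereas EPCAM went from 319 to 258 CPM and CDX2 from 94.6 to 80.1 CPM. The list did not move one way, as CDH17 rose from 134 to 183 CPM (adjusted p = 0.0020 from edgeR) and VIL1 went from 205 to 237 CPM without passing (adjusted p = 0.067 from edgeR). Marker sums of other cell types were low. Fibroblast markers summed to 16.1 to 19.9 CPM in control and 10.7 to 13.3 CPM in GLCC1 siRNA libraries, with 3 of 6 at 0 throughout, and leukocyte and macrophage markers to at most 5.996 CPM, with PTPRC at 0. The adipocyte genes ADIPOQ, FABP4 and LEP and the endothelial genes PECAM1 and CDH5 had no count in any library, and hepatocyte markers stayed between 22.6 and 30.2 CPM, with TTR at 0. The part of these markers in the enzyme values was not tested. Nothing in the labels says that the 3 libraries of a group were separate cultures, so p-values measure only the spread between these libraries.

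NCEH1 lies on the minus strand of chromosome 3, from 172348039 to 172429008 in hg19, and its main transcript has 5 exons. It was counted 1582, 1832 and 1787 times in the control libraries and 208, 187 and 236 times in the GLCC1 siRNA libraries. After scaling these were 108, 101 and 108 CPM against 10.8, 14.9 and 13.2 CPM. Every library of the GLCC1 siRNA group thus held far less NCEH1 RNA than any control library, and the spread inside each group was small beside the gap. The means were 106 ± 4.12 and 13.0 ± 2.02 CPM (SD, n = 3 each), 8.20-fold lower, which is -3.04 ± 0.12 (standard error) on the log2 scale. As these are bulk samples, fewer cells with NCEH1 RNA and less of it per cell cannot be told apart. Among 10378 genes averaging 10 CPM or more, this was the fall of rank 2, after L1CAM at -3.60 and just before GAL at -2.91 on the same log2 scale. No library decided the value, as leaving out any single library kept it between -3.13 and -2.91.

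**Figure D1:**
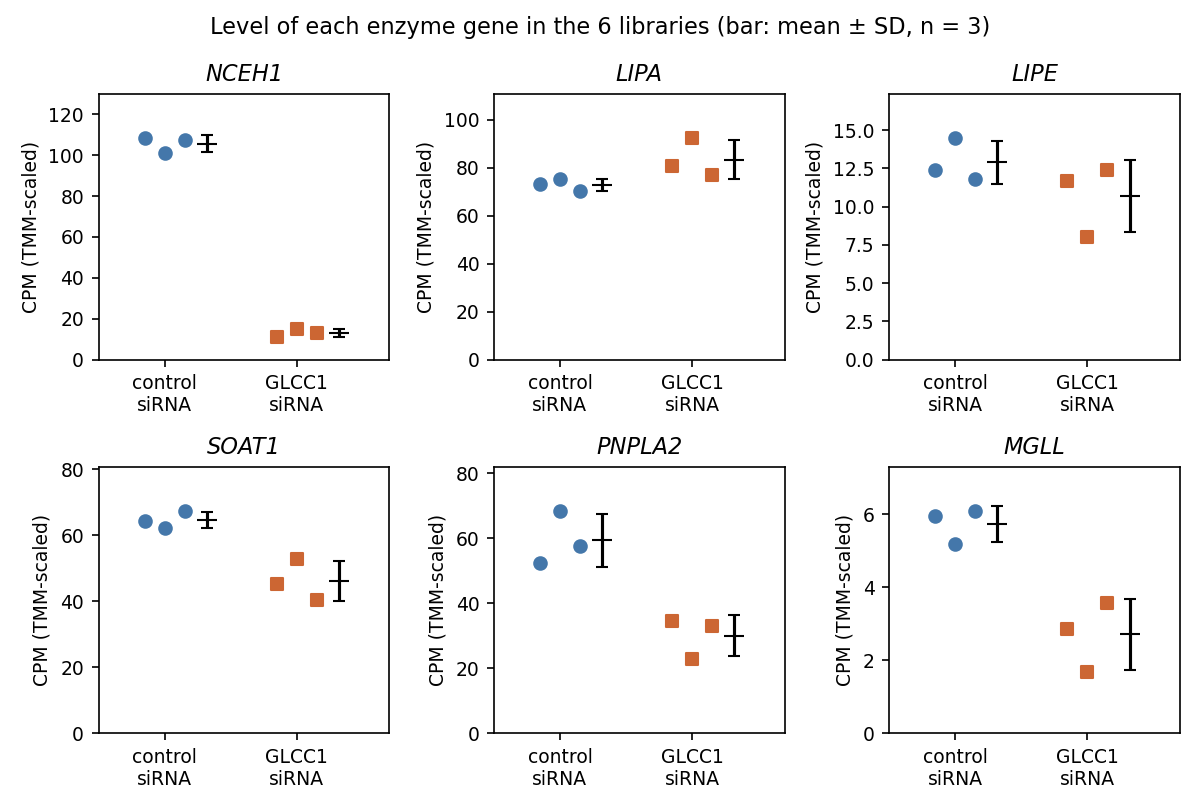
Level of NCEH1, LIPA, LIPE, SOAT1, PNPLA2 and MGLL in CPM (vertical axes from 0, each with its own scale) in the 3 control siRNA libraries (circles) and the 3 GLCC1 siRNA libraries (squares), with mean ± SD beside them. NCEH1 dropped from 101 to 108 CPM to between 10.8 and 14.9 CPM, SOAT1, PNPLA2 and MGLL were lower with smaller gaps, LIPA was slightly higher, and the LIPE groups overlapped.

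The last exon of NCEH1 carries a 3′ UTR of 3226 nt (chr3:172348039-172351264), and 19.68% of the 11335 genes searched had one at least as long, against a median of 1339 nt. It was searched for ACCTTGAA, the last 8 bases of the target of GLCC1 siRNA 1 as they stand in the sequence of the GLCC1 plasmid, and for its 7-base parts ACCTTGA and CCTTGAA, on the transcript strand only. The 8-base word holds both 7-base words, and it can pair with the first bases of the guide strand of that siRNA. The paper lists another GLCC1 siRNA, whose target was not searched, and the sources do not say which siRNA a library received. NCEH1 has ACCTTGAA once, 2551 nt after the stop codon, within chr3:172348696-172348725, and a separate ACCTTGA 419 nt after the stop codon, within chr3:172350829-172350857. Both are shown 5′ to 3′ on the transcript (minus) strand, from GENCODE 44 transcripts mapped to hg19, with the matching bases in capitals.
NCEH1, 8-base word: tataaagaaaaACCTTGAAgtgctgtatag
NCEH1, 7-base word: tgctagagttaACCTTGAgttcagagcag
The word ACCTTGAA occurs in the 3′ UTR of 4.38% of the genes searched, ACCTTGA in 11.98%, CCTTGAA in 15.29% and either 7-base word in 21.24%. None of the other 7 members has any of the words, although the 3′ UTR of SOAT1, at 5039 nt, is longer than that of NCEH1 and that of MGLL, at 3132 nt, about as long. The 3′ UTRs of LIPA (1256 nt), PNPLA2 (711 nt), SOAT2 (412 nt), AADAC (316 nt) and LIPE (298 nt) were shorter. A match is a description of the letters, and whether the siRNA acted on NCEH1 through them was not tested.

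Of the 5 genes whose pattern over the 6 libraries lay nearest to that of NCEH1, 4 are given here, GAL, L1CAM, PPT1 and TAF13. Nearness was the root mean square difference of log2(CPM + 1), each gene centred on its mean, among 10377 genes of at least 10 CPM, where the median difference from NCEH1 was 1.45. The differences were 0.19 for GAL, 0.25 for L1CAM, 0.33 for PPT1 and 0.35 for TAF13. GAL, which encodes the neuropeptide galanin, went from 85.2 ± 2.68 to 11.3 ± 2.29 CPM, and L1CAM, a cell adhesion molecule, from 18.8 ± 3.39 to 1.61 ± 0.803 CPM. PPT1, a lysosomal thioesterase that removes palmitate from proteins, went from 159 ± 3.13 to 30.5 ± 1.25 CPM, and TAF13, a subunit of the general transcription factor TFIID, from 32.04 ± 1.16 to 5.84 ± 1.153 CPM. These genes were found through the contrast itself, so their falls are not a further result. GAL, L1CAM, PPT1 and TAF13, with falls of similar depth, have none of the words in the transcripts searched.

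**Figure D2:**
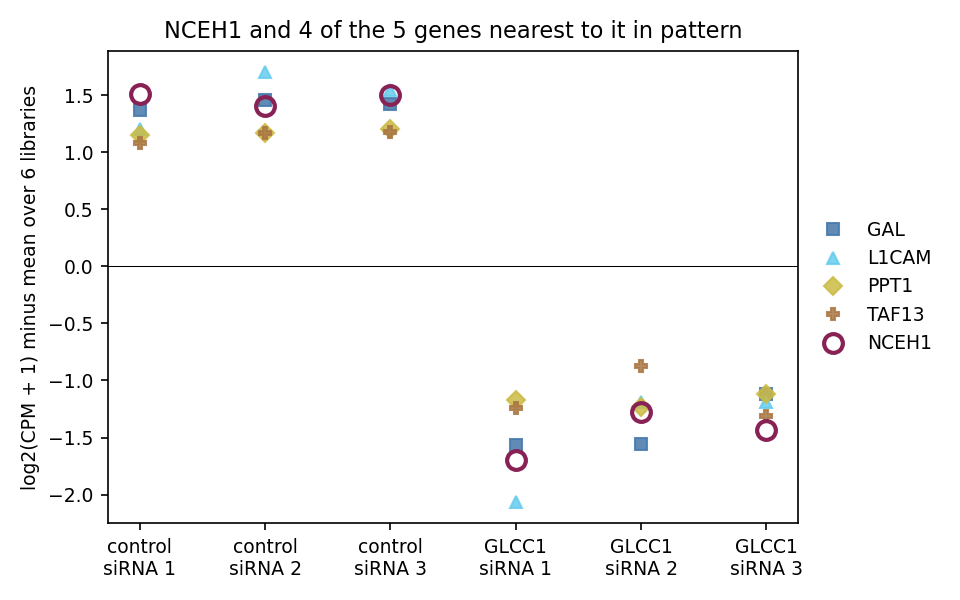
Centred log2(CPM + 1) of NCEH1 (open circles) and of GAL, L1CAM, PPT1 and TAF13 (filled symbols) in each of the 6 libraries, in the order control siRNA 1 to 3 and GLCC1 siRNA 1 to 3. All of these genes lie above their own mean in every control library and below it in every GLCC1 siRNA library, and L1CAM spreads most within the GLCC1 siRNA group.

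The other cholesterol ester hydrolases did not share the fall of NCEH1. LIPA had 73.4, 75.2 and 70.1 CPM in control libraries and 80.6, 92.4 and 76.9 CPM in GLCC1 siRNA libraries. The groups did not overlap, with the GLCC1 siRNA libraries slightly higher. The means were 72.9 ± 2.59 and 83.3 ± 8.10 CPM (SD, n = 3 each), a log2 fold change of 0.19 (95% interval -0.0091 to 0.39), which did not pass (adjusted p = 0.14 from edgeR). With library totals as the only scaling it passed, at 0.31 (adjusted p = 0.021 from edgeR). LIPA is on the minus strand of chromosome 10, from 90973326 to 91174314, and IFIT2 and IFIT3, interferon-induced genes on the opposite strand, overlap its exons in GENCODE 44. IFIT2 went from 21.9 ± 3.19 to 152 ± 37.9 CPM and IFIT3 from 19.8 ± 4.14 to 142 ± 42.8 CPM. The strand setting of the counting is not given in the sources used here, and the part of these neighbours in the LIPA count was not tested.

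LIPE, on the minus strand of chromosome 19 from 42905666 to 42931540, had 12.4, 14.5 and 11.8 CPM in control libraries and 11.7, 8.03 and 12.4 CPM in GLCC1 siRNA libraries. The groups overlapped, with GLCC1 siRNA replicate 3 among the control libraries, replicate 1 just under the lowest of them and replicate 2 well below. The log2 fold change was -0.26 (95% interval -0.59 to 0.08) and did not pass (adjusted p = 0.24 from edgeR). Without replicate 2 it was -0.10 (adjusted p = 0.49 from edgeR). Its antisense partner LIPE-AS1, which overlaps its exons, was at 0.828 ± 0.248 CPM in control and 1.37 ± 0.176 CPM in GLCC1 siRNA libraries.

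AADAC, on the plus strand of chromosome 3 from 151531861 to 151546276, was at or under the floor. Its counts were 0, 0 and 2 in the control libraries and 2, 1 and 0 in the GLCC1 siRNA libraries, and it was removed by the filter on low counts. A floor of 3 counts is worth 0.158 to 0.251 CPM in these libraries and covers counting error only, and a difference in AADAC was not detectable at this depth. AADACL2, AADACL3 and AADACL4, the remaining members of the hormone-sensitive lipase family listed, had no count in any library.

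Because a ratio of counts within a library does not depend on library scaling, the balance of the hydrolase genes was also read from the raw counts. NCEH1 made up 55.8%, 52.9% and 56.8% of the summed NCEH1, LIPA and LIPE counts in control libraries and 10.5%, 12.9% and 12.9% in GLCC1 siRNA libraries. LIPA made up 37.8%, 39.5% and 37.0% against 78.2%, 80.1% and 75.1%, and so took the larger share in every GLCC1 siRNA library. The LIPE share was 6.39%, 7.60% and 6.23% against 11.3%, 6.97% and 12.1%, with overlap. Shares of counts follow transcript length as well as abundance, so they compare libraries and not genes. Since NCEH1 enters each of these shares, they are a description without a test. The 3 hydrolase genes together came to 194, 191 and 190 CPM in control libraries and to 103, 115 and 102 CPM in GLCC1 siRNA libraries.

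**Figure D3:**
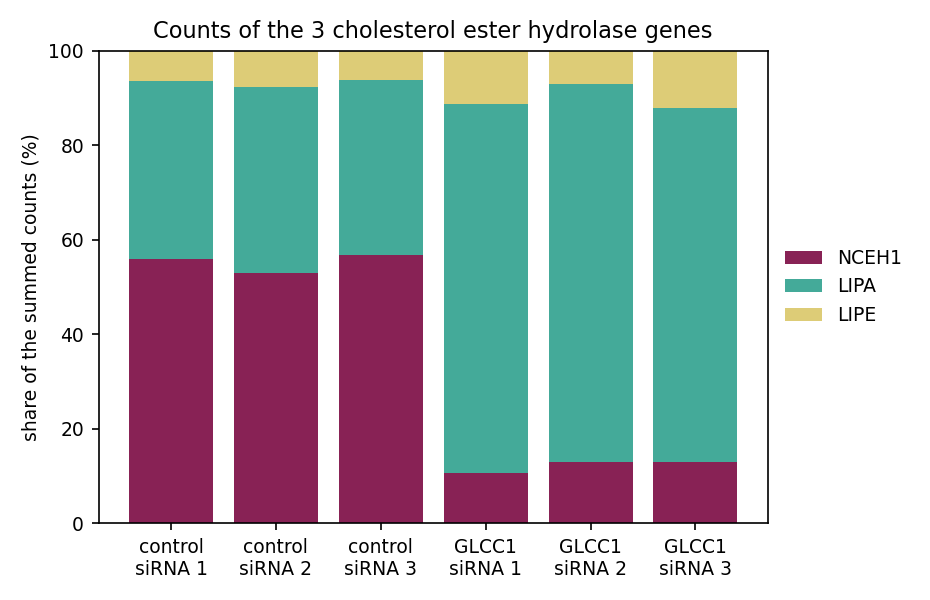
Share (%) of the summed counts of NCEH1, LIPA and LIPE that each gene took in each of the 6 libraries. NCEH1 took 52.9% to 56.8% in control siRNA libraries and 10.5% to 12.9% in GLCC1 siRNA libraries, where LIPA took 75.1% to 80.1%.

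SOAT1, the acyltransferase that makes cholesterol ester in most tissues, fell. It lies on the plus strand of chromosome 1 from 179262849 to 179327815, and its level was 64.4, 62.3 and 67.2 CPM in control libraries and 45.3, 52.7 and 40.5 CPM in GLCC1 siRNA libraries. All GLCC1 siRNA libraries lay below all control libraries. The means were 64.6 ± 2.48 and 46.1 ± 6.12 CPM (SD, n = 3 each), 1.40-fold lower, which is -0.49 ± 0.10 (standard error) on the log2 scale (edgeR, adjusted p = 0.0026). SOAT2, the isoenzyme of liver and intestine, on the plus strand of chromosome 12 from 53497270 to 53518319, had counts of 0, 3 and 2 in control and 1, 1 and 1 in GLCC1 siRNA libraries. It passed the filter on low counts only through the sum over the control group and never exceeded the floor of 3 counts, so no fold is given.

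NCEH1 counts per SOAT1 count, a comparison of hydrolase and acyltransferase within a library, were 1.68, 1.62 and 1.60 in control and 0.240, 0.282 and 0.326 in GLCC1 siRNA libraries. LIPA counts per SOAT1 count were 1.14, 1.21 and 1.04 against 1.78, 1.76 and 1.90. LIPA and SOAT1 therefore moved apart in every GLCC1 siRNA library, although LIPA alone did not pass. The exact two-sided permutation test of this ratio gave p = 0.1, the smallest that 3 against 3 allows, and 0.2 after Benjamini-Hochberg adjustment over 4 ratios. PNPLA2 counts per SOAT1 count were 0.813, 1.10 and 0.856 in control and 0.762, 0.431 and 0.811 in GLCC1 siRNA libraries. That ratio also gave p = 0.1 (exact permutation test), although its groups barely separated, with 0.811 against 0.813 at the border. Its means were 0.92 ± 0.15 and 0.67 ± 0.21 (SD). LIPE per SOAT1 gave p = 0.5 and MGLL per PNPLA2 p = 0.7 by the same exact test.

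Of the lipases of triacylglycerol and monoacylglycerol, both members fell. PNPLA2, adipose triglyceride lipase, on the plus strand of chromosome 11 from 818914 to 825573, had 52.3, 68.2 and 57.5 CPM in control libraries and 34.5, 22.7 and 32.8 CPM in GLCC1 siRNA libraries. The groups did not overlap, and replicate 2 of the GLCC1 siRNA group was lowest. The means were 59.3 ± 8.11 and 30.0 ± 6.39 CPM (SD, n = 3 each), 1.97-fold lower, which is -0.98 ± 0.15 (standard error) on the log2 scale (edgeR, adjusted p = 1.8e-04). Without that replicate the log2 fold change was -0.82. An unnamed gene on the opposite strand overlaps PNPLA2 in GENCODE 44. The strand setting of the counting is not given, and the part of this neighbour in the PNPLA2 count was not tested.

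MGLL, monoacylglycerol lipase, on the minus strand of chromosome 3 from 127407905 to 127771033, was the lowest of the called members. It was counted 87, 94 and 101 times in control and 55, 21 and 64 times in GLCC1 siRNA libraries, or 5.97, 5.18 and 6.08 CPM against 2.87, 1.67 and 3.58 CPM. Again no GLCC1 siRNA library reached a control library. The means were 5.74 ± 0.491 and 2.71 ± 0.965 CPM (SD, n = 3 each), 2.06-fold lower, which is -1.04 ± 0.22 (standard error) on the log2 scale (edgeR, adjusted p = 0.0024). MGLL per PNPLA2 was 0.099 ± 0.020 in control and 0.089 ± 0.018 in GLCC1 siRNA libraries, within the spread between libraries.

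Of the 8 members, 7 passed the filter on low counts, and of the 6 that remain beside NCEH1, 3 fell (SOAT1, PNPLA2 and MGLL) and none rose. Over all 23074 genes tested, 31.6% had an adjusted p under 0.05 from edgeR, 14.9% higher and 16.7% lower in GLCC1 siRNA. Among the 11666 genes averaging 5 CPM or more, where the better measured genes lie, 49.4% were called, 20.7% higher and 28.7% lower. Levels of the 2 groups did not overlap for 46.3% of all genes tested, 22.3% higher and 24% lower, and for LIPA, SOAT1, PNPLA2 and MGLL among the members other than NCEH1. Of the 4 other members at that level (LIPA, LIPE, SOAT1 and PNPLA2), 2 were called, close to the share over all genes there, and MGLL lay below it. With library totals as the only scaling, 4735 genes were higher and 2797 lower, in place of 3429 and 3864. Leaving out any single library left 3 members called, and in the setting with library totals LIPA joined them as a rise.

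**Figure D4:**
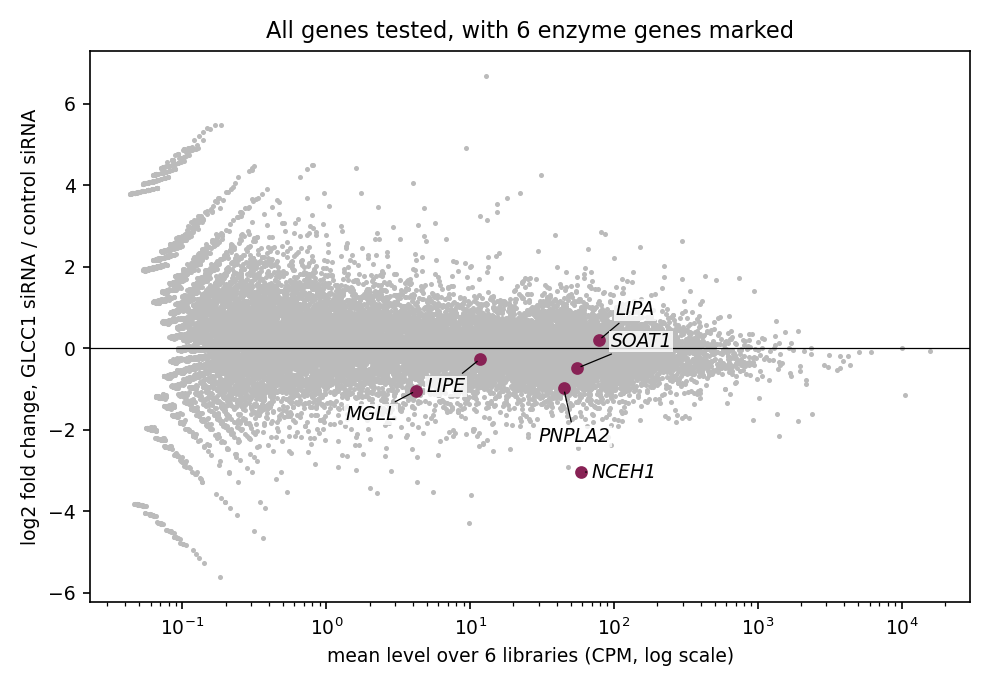
Log2 fold change (GLCC1 siRNA over control siRNA) of every gene tested against its mean level in CPM on a log axis (grey), with NCEH1, LIPA, LIPE, SOAT1, PNPLA2 and MGLL marked. NCEH1 at -3.04 lies at the lower edge of the genes at its level, while the other members lie between -1.04 and 0.19.

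Levels of different genes can be compared only per length. Per kb of merged exons, NCEH1 led the 8 genes in control libraries, at 22.0 ± 0.856 CPM per kb (SD, n = 3), followed by PNPLA2 at 15.5 ± 2.12, LIPA at 14.9 ± 0.530, SOAT1 at 9.22 ± 0.354, LIPE at 2.50 ± 0.273 and MGLL at 0.508 ± 0.043. PNPLA2 and LIPA overlapped and did not differ beyond their spread. In GLCC1 siRNA libraries the order was LIPA at 17.0 ± 1.66 CPM per kb, PNPLA2 at 7.83 ± 1.67, SOAT1 at 6.59 ± 0.874, NCEH1 at 2.698 ± 0.421, LIPE at 2.07 ± 0.451 and MGLL at 0.240 ± 0.085. NCEH1 thus moved from rank 1 to rank 4, where its libraries (2.26 to 3.09) overlapped those of LIPE (1.56 to 2.40). The first place in control libraries depends on the length used, since per kb of the main transcript LIPA and PNPLA2 came before NCEH1, which then had rank 3. AADAC and SOAT2 were at the bottom in both groups.

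The other genes of the pathway were taken from lists by function, 144 genes besides the members, of which 116 were tested. Of these 15 rose and 49 fell, and the median was -0.35 on the log2 scale, beside 0.03 over every gene tested. With library totals as the only scaling, 20 rose and 44 fell. Among the 89 averaging 5 CPM or more, 15.7% rose and 49.4% fell, beside 20.7% and 28.7% of all genes at that level. The lists differed in how they moved. At that level and without the members, 18.2% rose and 27.3% fell in glycerolipid synthesis, close to all genes. The shares were 0% and 25% for acyltransferases, 21.4% and 42.9% for lipases and 15.4% and 46.2% for droplet proteins. For cholesterol uptake, transport and efflux they were 12.5% and 50%, for sterol synthesis 0% and 80%, and for ether lipid genes 45.5% and 36.4%. These lists held only 4 to 20 genes at that level. The up to 4 called genes with the largest change in each list are named.

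Of the 6 further acyltransferases that make neutral lipid, with a median log2 fold change of -0.34, DGAT2, which makes triacylglycerol, was the single one called and fell from 27.3 ± 1.10 to 19.4 ± 0.457 CPM (log2 fold change -0.49, adjusted p = 0.0016 from edgeR). DGAT1 had a log2 fold change of -0.36 and did not pass (adjusted p = 0.061 from edgeR). Of 12 genes of glycerolipid synthesis, 2 rose and 3 fell, with a median of -0.05. AGPAT2, which acylates lysophosphatidic acid, fell by 1.08 on the log2 scale, its relative AGPAT5 by 0.70 and the lipin LPIN3 by 0.47, whereas LPIN2 rose by 0.49. Lipins turn phosphatidic acid into diacylglycerol.

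Of the 21 further lipases tested, 3 rose and 7 fell, with a median log2 fold change of -0.16. DDHD1, a phospholipase that acts on phosphatidic acid, rose from 38.6 ± 1.86 to 72.9 ± 9.31 CPM (log2 fold change 0.91, adjusted p = 2.1e-05 from edgeR). The 3 named falls were in the family of PNPLA2. PNPLA3, known for its variants in fatty liver disease, went from 8.43 ± 0.546 to 4.25 ± 1.00 CPM, PNPLA6, a lysophospholipase of neurons and other cells, from 71.2 ± 7.66 to 40.5 ± 11.6 CPM, and PNPLA8, a phospholipase of mitochondria and peroxisomes, from 63.7 ± 0.570 to 39.5 ± 3.98 CPM. Their log2 fold changes were -0.96, -0.81 and -0.69. ABHD5, the protein that activates PNPLA2, belongs to the droplet list and had a log2 fold change of 0.33 without passing (adjusted p = 0.051 from edgeR). G0S2, the inhibitor of PNPLA2, had at most 2 counts in a library.

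Among 19 lipid droplet proteins and lipase cofactors tested, 2 rose and 6 fell, with a median of -0.11. PLIN2, the coat protein of droplets in most cells, had 61.2, 74.0 and 69.6 CPM in control libraries and 130, 125 and 160 CPM in GLCC1 siRNA libraries. It rose in every GLCC1 siRNA library above all control libraries, with means of 68.2 ± 6.50 and 138 ± 18.9 CPM (SD, n = 3 each) and a log2 difference of 1.02 ± 0.11 (standard error, adjusted p = 1.2e-05 by edgeR). PLIN4, a perilipin known from fat and muscle, went the other way, from 16.5 ± 1.198 to 9.75 ± 2.32 CPM. FITM2, which is needed for droplets to bud from the endoplasmic reticulum, fell from 21.6 ± 1.75 to 10.1 ± 0.319 CPM (adjusted p = 8.5e-06 from edgeR). FAF2, which recruits the segregase VCP to droplets and the endoplasmic reticulum, fell from 150 ± 2.91 to 75.9 ± 10.4 CPM.

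Cholesterol synthesis and traffic gave more falls than rises. Of the 21 genes of sterol synthesis and its regulators, 16 fell and none rose, with a median log2 fold change of -0.51. MSMO1, a sterol demethylase, fell from 56.5 ± 1.64 to 18.2 ± 2.95 CPM (log2 fold change -1.65, adjusted p = 3.2e-07 from edgeR), and INSIG1, which holds the SREBP complex in the endoplasmic reticulum, from 70.6 ± 2.38 to 27.9 ± 3.67 CPM (-1.34, adjusted p = 8.2e-07 from edgeR). IDI1 and MVK, enzymes of the mevalonate route, fell by 1.07 and 0.88. Of 26 genes of cholesterol uptake, transport and efflux tested, 3 rose and 12 fell, with a median of -0.44. NR1H2, the oxysterol receptor LXR beta, fell from 25.3 ± 0.0579 to 10.1 ± 0.704 CPM (log2 fold change -1.32, adjusted p = 1.1e-06 from edgeR). NPC1, which moves cholesterol out of the lysosomes where LIPA frees it, fell from 88.8 ± 3.86 to 55.2 ± 5.89 CPM, SCARB1, the receptor that takes up cholesterol ester from HDL, from 209 ± 14.8 to 132 ± 13.0 CPM, and CAV1, a caveolar protein, from 20.2 ± 1.55 to 12.2 ± 1.92 CPM.

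Of 11 genes of ether lipid and platelet activating factor metabolism, a pathway in which NCEH1 also acts, 5 rose and 4 fell, with a median of -0.04. LPCAT1 rose from 78.5 ± 1.62 to 171 ± 1.32 CPM (log2 fold change 1.12, adjusted p = 3.1e-07 from edgeR), with almost no spread inside the groups, while LPCAT2, which can make the same acetylated lipid, fell from 69.9 ± 2.52 to 46.9 ± 7.995 CPM. PAFAH1B2, a subunit of the acetylhydrolase of platelet activating factor, rose by 0.89 on the log2 scale. FAR1, the reductase that supplies the fatty alcohol for ether lipids, fell by 0.61.

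**Figure D5:**
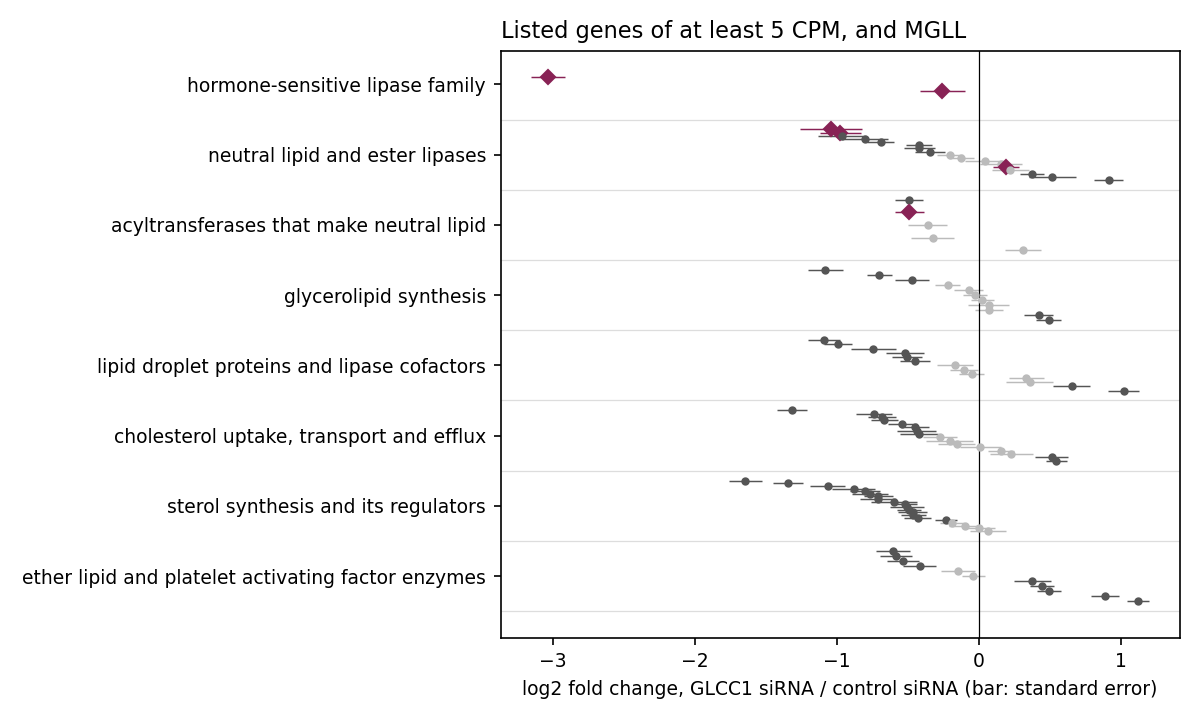
Log2 fold change (GLCC1 siRNA over control siRNA) with standard error for listed genes of at least 5 CPM and for MGLL, 1 row of points per list, with members as purple diamonds, other genes with an adjusted p under 0.05 in dark grey and the rest in light grey. NCEH1 at -3.04 lies far left of every other listed gene, of which the lowest is MSMO1 at -1.65 and the highest LPCAT1 at 1.12, and the sterol synthesis list lies almost wholly left of 0.

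The words found in the NCEH1 3′ UTR, all from the target of GLCC1 siRNA 1, were also counted in the listed genes. ACCTTGA was present in 9 of 50 listed genes that were lower (18.0%). It was present in 0 of 13 that were higher and in 2 of 38 that were not called (5.3%). These counts hold the other members but leave out NCEH1. Over all genes searched, NCEH1 among them, ACCTTGA was present in 17.8% of 3123 lower, 8.8% of 2295 higher and 10.2% of 5917 genes not called. The lower listed genes thus carried it about as often as lower genes in general. The 8-base word stands in the 3′ UTR of NR1H2 and FAR1, both of them lower, within chr19:50886124-50886153 for NR1H2 (exon 10 of 10) and chr11:13751347-13751376 for FAR1 (exon 12 of 12), on the plus strand.
NR1H2: gcacgcagtgcACCTTGAAcagagggaggg
FAR1: tactaattttgACCTTGAAagatgaattcc
Of the 20 named pathway genes that fell, 9 carry at least 1 of the words, namely NR1H2, FAR1, PNPLA3, PNPLA8, PLIN4 and IDI1 with ACCTTGA, and DGAT2, FAF2 and INSIG1 with CCTTGAA alone. The other 11, AGPAT2, FITM2 and MSMO1 among them, have none, and neither does any of the 5 named pathway genes that rose. The part of the words in any of these falls was not tested.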

How the data were processed

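RNA sequencing of 6 libraries, 3 per group, was used. The authors prepared libraries with an Illumina TruSeq kit, mapped paired-end reads to hg19 with TopHat (TopHat2 2.0.11 in the submitters' processing notes) and counted read pairs per gene with HTSeq in union mode, whose version is not given in the sources used here. The deposited files hold raw counts per gene symbol. HTSeq's tallies were left out of library sizes, and pairs on no gene made up 9.82% to 12.7% of all tallied pairs, ambiguous pairs 7.30% to 7.79% and pairs mapped more than once 10.8% to 12.4%. No pair of libraries looked like a copy, since chi-square per degree of freedom was 1.84 to 17.1 within groups.

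As the study's methods state, a gene was removed when its counts summed to fewer than 5 in each group, which left 23074. Counts were scaled with TMM factors of 0.950 to 1.05 and tested in edgeR 4.0.16 (R 4.3.3) with the robust quasi-likelihood fit, 3 control siRNA against 3 GLCC1 siRNA libraries, with Benjamini-Hochberg adjustment over all genes tested and a threshold of 0.05. The paper used DESeq2, which was an alternative here (1.42.0). On simulated data with 200 of 22238 genes changed, edgeR recovered 200 and called 210, so 4.76% of those calls were false. In the data 31.6% of genes were called, a far larger share than the simulation changed, so this rate need not hold there. Intervals are 95%. With 3 against 3, an exact two-sided permutation test cannot give a p below 0.1. Ratios of counts were tested with scipy 1.17.1 and were chosen after the values were seen.

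The members and gene lists were chosen with earlier results of these data known. Named were the members, up to 4 non-members per list with the largest change among called genes of at least 5 CPM, the 5 genes nearest NCEH1 in pattern of at least 10 CPM (1 of them is not reported here), FARP1, and the markers EPCAM, KRT8 and CDX2. Genes named without meeting this rule were chosen after their values were seen. They included DGAT1, ABHD5, G0S2, CDH17, VIL1, PLIN1, VWF, the IFIT genes, LIPE-AS1 and the AADAC relatives. Positions, exons and 3′ UTRs came from GENCODE 44 mapped to hg19, and the search covered 11335 genes averaging 1 CPM or more whose 3′ UTR had 50 nt or more. Standard errors on the log2 scale were 0.22 for MGLL at 87 to 101 control counts and 0.10 for SOAT1 at 939 to 1130, while PNPLA6 had 0.17 at 976 to 1453, so depth alone did not set them.

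Alternatives were DESeq2, DESeq2 size factors, library totals, the replicate number as a block, a filter of 1 count in any library or of 10 in every library, groups by library name, and each library left out.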

Additional observations from a re-analysis of the deposited data

Results flagged for a closer look

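The share of tallied read pairs that HTSeq gave to no gene, a tally outside the gene counts, was highest in replicate 2 of the GLCC1 siRNA group, at 12.7%, against 9.82% to 10.1% in the control libraries and 10.96% and 11.2% in the other GLCC1 siRNA libraries. The same library had the fewest counts on genes, 11948790. Without it the log2 fold changes were -3.13 for NCEH1, -0.59 for SOAT1, -0.82 for PNPLA2, -0.83 for MGLL, 0.12 for LIPA and -0.10 for LIPE.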

How the results depend on the processing

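With the groups taken from the library names, every direction turned by construction. NCEH1 was then at 3.04, 7293 genes were called, 3864 of them higher, 3 members were called higher, and 64 listed genes were called, 49 of them higher. Under the remaining alternatives the counts of calls stayed within 1.5 times those given and NCEH1 between -3.04 and -2.91. Leaving out each library in turn gave 5221 to 9920 genes called, 3 members, 55 to 77 listed genes and -3.13 to -2.91 for NCEH1. With library totals as the only scaling, the median log2 fold change of all genes moved from 0.03 to 0.15, 4735 genes were higher and 2797 lower in place of 3429 and 3864, and among listed genes 20 were higher and 44 lower. For single genes, 358 results kept their direction and their side of the threshold. The exceptions were LIPA, which passed with library totals (0.31, adjusted p = 0.021 from edgeR), and LPIN3, which did not pass without control replicate 2 (-0.40, adjusted p = 0.066 from edgeR). The cause was not tested. Libraries with the same replicate number did not deviate together (r = -0.18, -0.32 and -0.01 across 14875 genes, which are not independent replicates), so the numbers were not treated as pairs. With the replicate block, 6522 genes, 3 members and 61 listed genes were called, and NCEH1 was at -3.04. Depth limits AADAC and SOAT2, which had at most 3 counts in any library.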

Other observations

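Several genes of cholesterol efflux and uptake fell outside the rule for named genes and were chosen after their values were seen. ABCA1, the transporter that loads cholesterol onto apolipoprotein A-I, was counted 6, 10 and 9 times in control and 48, 31 and 45 times in GLCC1 siRNA libraries and rose from 0.501 ± 0.078 to 2.50 ± 0.027 CPM (log2 fold change 2.29, adjusted p = 3.1e-05 from edgeR, higher in 3 of 3 libraries). ABCG1, which passes cholesterol to HDL, went the other way, from 4.55 ± 0.586 to 1.71 ± 0.655 CPM (-1.40, adjusted p = 6.6e-04 from edgeR). Of the oxysterol receptors, NR1H3 (LXR alpha) rose by 0.51 (adjusted p = 0.0042 from edgeR) while NR1H2 (LXR beta) fell. Any part of these receptors in the changes of ABCA1 and ABCG1 was not tested. The lipoprotein receptor VLDLR fell from 6.17 ± 0.521 to 2.03 ± 0.263 CPM, with a log2 fold change of -1.61.

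Of the genes that set sterol synthesis, SREBF2 fell from 111 ± 13.9 to 64.9 ± 11.3 CPM and SREBF1 from 130 ± 11.9 to 79.6 ± 15.5 CPM (log2 fold changes -0.77 and -0.71).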
